A study of Mus musculus with 38 samples.

Results

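Endothelial cells (ECs) sorted from mouse hearts after acute myocardial infarction (Control-AMI) were compared with ECs from Sham hearts. The comparison used 8 of the 38 libraries of the series, 4 per group, chosen by the population and group in their labels. All mice were C57BL/6 males aged 8 to 12 weeks, and both groups had been given vehicle, 5% DMSO in saline, by mouth daily for 6 weeks. Control-AMI hearts had 30 min of ischemia by ligation of the left anterior descending coronary artery and 2 h of reperfusion, and Sham hearts were operated on without the ligation. Cells came from the tissue below the suture, and each library was made from 2 pooled hearts, so n counts pools and not mice. ECs were the CD45- CD31+ cells of the sort, and fibroblasts the CD45- CD31- CD90+ cells. Values are estimated counts per gene from 3′ libraries, given here scaled by library size and TMM factors (CPM).

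Coronary ECs line the vessels that are closed and reopened in this model. Under steady flow they are held quiescent by transcription factors such as KLF2, by Notch and VEGF receptor signaling and by junction proteins, and they carry fatty acids to the heart muscle. Activated by cytokines through NF-kappaB and STAT3, ECs show P-selectin and other adhesion molecules to leukocytes and take part in clotting. Fibroblasts, the neighbouring stromal cells, make the interstitial collagens and many matrix proteases.

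The 8 libraries held 1352514 to 2195308 counts, and a count of 0 left room for up to 3 counts, or 1.37 to 2.22 CPM, by counting error alone. Mitochondrial transcripts took 4.52% to 7.67% of the counts except in Control-AMI 3, where they took 14.6%. All 12 endothelial markers were detected in every library, which fits the label, but markers of other cells also moved with the groups. The 14 fibroblast markers summed to 1325, 2579, 882 and 1408 CPM in Sham replicates 1 to 4 and 15108, 3598, 4398 and 8084 CPM in Control-AMI replicates 1 to 4. Every Control-AMI library lay above every Sham library, with Control-AMI 1 the highest. As a share of counts the fibroblast markers took 0.0925% to 0.263% in Sham ECs, 0.367% to 1.52% in Control-AMI ECs and 3.81% to 5.67% in Sham fibroblasts. The endothelial markers summed to 16063, 14722, 16178 and 15103 CPM in Sham replicates 1 to 4 and 7779, 10603, 10472 and 9593 CPM in Control-AMI replicates 1 to 4, with every Control-AMI library below every Sham library. In bulk samples, fewer cells of a type and less RNA per cell cannot be told apart.

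Red cell and platelet transcripts moved with the groups as well, to a summed 265 to 1081 CPM in Control-AMI from 27.1 to 192 CPM in Sham. Leukocyte markers summed to 37.8, 20.4, 6.33 and 13.9 CPM in Sham replicates 1 to 4 and 36.7, 54.9, 666 and 61 CPM in Control-AMI replicates 1 to 4. Control-AMI 3 stood apart there, and the 2 groups met at Sham 1 and Control-AMI 1. Mural markers, 406 to 929 CPM in Control-AMI and 662 to 1088 CPM in Sham, and cardiomyocyte markers, 472 to 1586 and 450 to 1759 CPM, overlapped between the groups. The numbers in the labels also order the libraries into 4 runs of a sample sheet, whose meaning is not given in the sources used here. By the study's methods all libraries were prepared and sequenced together. Sham 2 to 4 and Control-AMI 2 and 3 were in run 2, Sham 1 in run 3 and Control-AMI 1 and 4 in run 4. No other EC library was in run 4. A term for the run therefore leaves the Control-AMI side of the contrast to replicates 2 and 3, as does a fit of run 2 alone. These 2 fits, used below, are not independent checks.

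**Figure D1:**
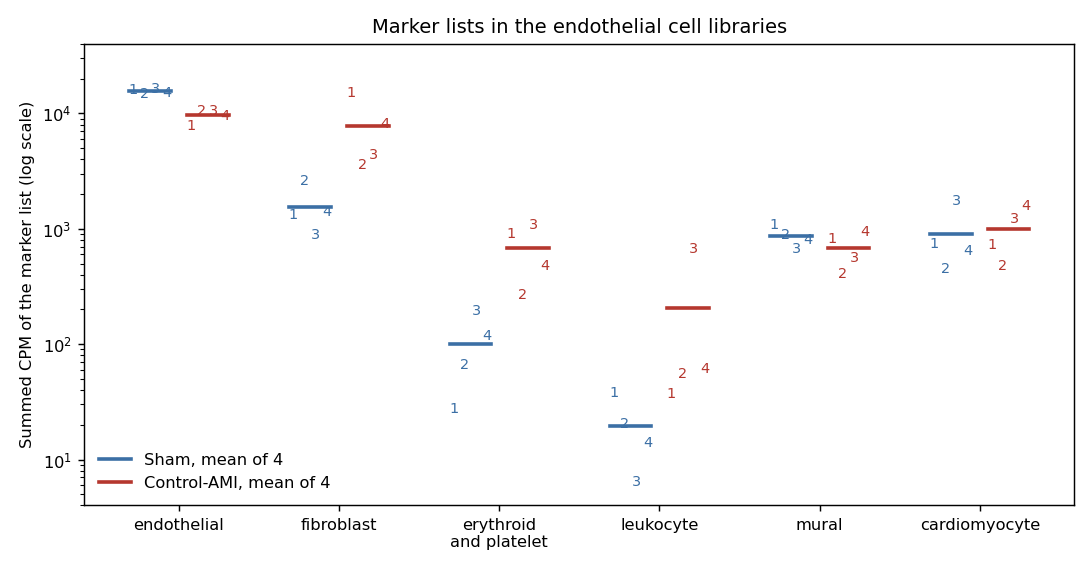
Summed CPM of 6 marker lists (log scale) in the 8 EC libraries, with each library drawn as its replicate number and the mean of each group as a line. The fibroblast list sat at 882 to 2579 CPM in Sham and 3598 to 15108 CPM in Control-AMI, while the endothelial list fell from 14722 to 16178 CPM to 7779 to 10603 CPM.

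Between Control-AMI and Sham ECs, 685 of 10438 genes (6.56%) passed an FDR of 0.05 (edgeR, quasi-likelihood test, here called). Of these 427 (4.09%) were higher and 258 (2.47%) lower in Control-AMI, and the median log2 fold change over all genes was -0.015. The 4 Control-AMI values all lay above the 4 Sham values for 603 genes (5.78%) and all below them for 578 (5.54%). Genes whose mean CPM in Sham fibroblasts was over 2 times that in Sham ECs, called fibroblast-enriched here, were taken apart from the others. For this ratio CPM was the count over the library total, without TMM factors. Of the 1173 fibroblast-enriched genes 280 (23.9%) were higher and 1 (0.0853%) lower, with a median log2 fold change of 0.70. Of the 9265 other genes 147 (1.59%) were higher and 257 (2.77%) lower, with a median of -0.062. The rule used the Sham EC libraries that also stand in the contrast, so the class and the contrast are not independent. Sorted by Control-AMI libraries in place of Sham, 242 called genes were fibroblast-enriched and 443 were not.

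The change in ECs followed how much more of a gene Sham fibroblasts held than Sham ECs. Among 258 genes at 8 times or more in fibroblasts, 183 (70.9%) were higher and none lower by edgeR, with a median log2 fold change of 2.27. Most of the fibroblast markers (median 2.50) are themselves among these genes, so the 2 medians are not independent. The medians were 0.95 for 226 genes at 4 to 8 times and 0.40 for 689 genes at 2 to 4 times. At the other end, among 1782 genes at less than 0.5 times in fibroblasts, 35 were higher and 212 lower, with a median of -0.31. Near the threshold, S100a11 and Fkbp2 lay just below 2 times (log2 fold changes -0.022 and -0.021) and Phyh and Cask just above it (0.35 and 0.34). With the fibroblast marker level of each library as a term in the fit, no gene was called in either class by edgeR, while 769 genes had an unadjusted p below 0.05, of which 666 were not fibroblast-enriched. DESeq2 was not run with that term. That level was higher in every Control-AMI library than in every Sham library, so the term and the group overlap in this fit. The part of the level in each result below was not tested.

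**Figure D2:**
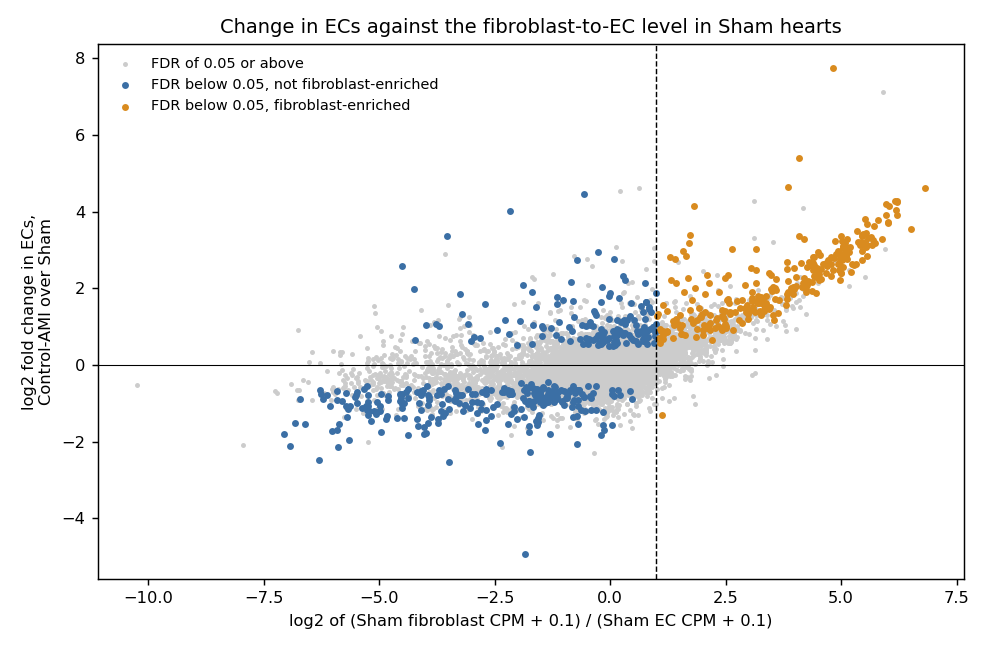
Each point is 1 of 10438 genes, by the log2 ratio of its mean CPM in Sham fibroblasts to Sham ECs (x axis, without TMM factors, 0.1 added to each mean) and its log2 fold change in ECs (y axis). To the right of the dashed line, the threshold of 2 times, the called genes in orange rise with the ratio, and to the left the called genes in blue lie on both sides of 0, with 147 above and 257 below.

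Outside the fibroblast-enriched class, the 10 called genes that rose most without overlap of the groups were Tmem252, F10, Selp, 3 hemoglobin genes, Gvin5, Map3k6, Socs3 and Eid3. Tmem252 (ENSMUSG00000048572, chromosome 19, 24651363 to 24659757 in GRCm39), a transmembrane protein gene, had 0, 1.9, 0.973 and 0.694 CPM in Sham replicates 1 to 4 and 5.9, 23.3, 23.4 and 38 CPM in Control-AMI replicates 1 to 4. It was near the detection floor in every Sham library and above it in every Control-AMI library (log2 fold change 4.46 ± 0.73 SE, FDR = 0.00262). F10 (ENSMUSG00000031444, chromosome 8, 13087293 to 13106676), which encodes clotting factor X, had 4.13, 1.43, 1.46 and 0.694 CPM in Sham replicates 1 to 4 and 16.3, 26.3, 16.7 and 69.7 CPM in Control-AMI replicates 1 to 4. Every Control-AMI library lay above every Sham library, with Control-AMI 4 the highest (log2 fold change 4.01 ± 0.57 SE, FDR = 0.000663). Selp (ENSMUSG00000026580, chromosome 1, 163942833 to 163977595) encodes P-selectin, which ECs store and show to leukocytes and platelets. It had 15.9, 14.3, 11.7 and 18 CPM in Sham replicates 1 to 4 and 55.8, 353, 53.5 and 153 CPM in Control-AMI replicates 1 to 4. The Control-AMI libraries ranged widely, with replicate 2 the highest, but none reached down to Sham (log2 fold change 3.36 ± 0.86 SE, FDR = 0.0446).

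Map3k6 (ENSMUSG00000028862, chromosome 4, 132968091 to 132980241), a kinase of stress signaling, had 31.3, 55.6, 15.6 and 26.4 CPM in Sham replicates 1 to 4 and 116, 199, 141 and 195 CPM in Control-AMI replicates 1 to 4 and the groups did not overlap (log2 fold change 2.32 ± 0.32 SE, FDR = 0.00091). Socs3, the feedback inhibitor of STAT3 signaling, had 33, 60.4, 20.4 and 36.8 CPM in Sham replicates 1 to 4 and 102, 239.9, 271 and 95.3 CPM in Control-AMI replicates 1 to 4. Control-AMI 2 and 3 were higher than Control-AMI 1 and 4, and all lay above Sham (log2 fold change 2.22 ± 0.46 SE, FDR = 0.0157). Eid3, an inhibitor of transcription coactivators, had 6.49, 3.8, 5.84 and 1.39 CPM in Sham replicates 1 to 4 and 14.5, 22.8, 22.7 and 21.8 CPM in Control-AMI replicates 1 to 4 (log2 fold change 2.17 ± 0.38 SE, FDR = 0.00152). The hemoglobin genes Hba-a2 (2.94 ± 0.75), Hba-a1 (2.76 ± 0.62) and Hbb-bt (2.73 ± 0.67) are themselves among the red cell and platelet markers summed above. Reads shared by their near-identical copies make the split among them uncertain. Gvin5 (log2 fold change 2.57 ± 0.67 SE, FDR = 0.0232) is annotated as a transcribed pseudogene, so its counts may include reads of related genes. Among these 10 genes, some lost the call in fits that left out 1 of the 8 libraries. With the number of such fits and the highest FDR among them, they were Selp (6, FDR = 0.132 without Sham 3), Hba-a2 (6, FDR = 0.114 without Sham 2), Hba-a1 (3, FDR = 0.0687 without Sham 2), Hbb-bt (4, FDR = 0.0789 without Sham 2) and Gvin5 (4, FDR = 0.0791 without Sham 3). Tmem252, F10 and Eid3 were also called both with a term for the sample-sheet run and within run 2, while each of the others in this set lost the call in 1 or both of these fits.

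**Figure D3:**
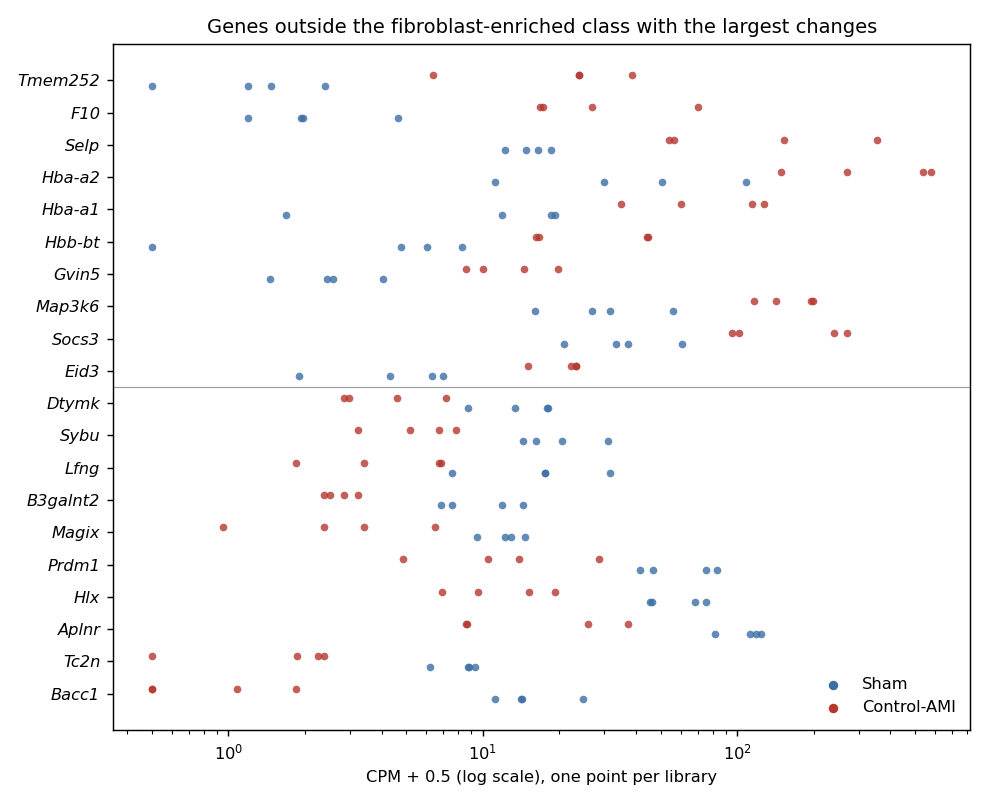
CPM plus 0.5 (log scale) of the 20 genes outside the fibroblast-enriched class that changed most, 10 higher and 10 lower, with 1 point per library. No Control-AMI point of a gene lies among its Sham points, and Lfng has a narrow gap, from 6.35 CPM in Control-AMI 1 to 7.08 CPM in Sham 1.

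The 10 that fell most were Bacc1, Tc2n, Aplnr, Hlx, Prdm1, Magix, B3galnt2, Lfng, Sybu and Dtymk. Bacc1 had 10.6, 13.8, 13.6 and 24.3 CPM in Sham replicates 1 to 4 and 0, 0.584, 1.34 and 0 CPM in Control-AMI replicates 1 to 4, or 110 counts in all Sham libraries and 3 in all Control-AMI libraries. This was 36.9 times lower in Control-AMI, with an exact 95% interval of 12.3 to 181 that covers counting error only (FDR = 0.00461). Aplnr, the receptor of the peptide apelin, had 81.4, 124, 118 and 112 CPM in Sham replicates 1 to 4 and 25.4, 8.17, 36.8 and 8.09 CPM in Control-AMI replicates 1 to 4. It fell in every Control-AMI library, most in replicates 2 and 4 (log2 fold change -2.47 ± 0.52 SE, FDR = 0.016). Hlx (ENSMUSG00000039377, chromosome 1, 184458496 to 184465842), a homeobox transcription factor, had 74.9, 45.6, 67.6 and 45.1 CPM in Sham replicates 1 to 4 and 9.07, 6.42, 14.7 and 18.7 CPM in Control-AMI replicates 1 to 4. The highest Control-AMI library was well below the lowest Sham library (log2 fold change -2.27 ± 0.29 SE, FDR = 0.000275). Prdm1, the transcriptional repressor also known as Blimp-1, had 82.6, 46.1, 74.9 and 41 CPM in Sham replicates 1 to 4 and 9.98, 13.4, 28.1 and 4.36 CPM in Control-AMI replicates 1 to 4 (log2 fold change -2.15 ± 0.42 SE, FDR = 0.00588).

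Lfng, a glycosyltransferase that modifies Notch receptors, had 7.08, 17.1, 17 and 31.2 CPM in Sham replicates 1 to 4 and 6.35, 2.92, 1.34 and 6.23 CPM in Control-AMI replicates 1 to 4. The gap between the groups was narrow there, since Control-AMI 1 and 4 were close to Sham 1 (log2 fold change -2.05 ± 0.53 SE, FDR = 0.0201). The log2 fold changes of the others were Tc2n (-2.54 ± 0.75), Magix (-2.12 ± 0.61), B3galnt2 (-2.06 ± 0.54), Sybu (-1.96 ± 0.41) and Dtymk (-1.84 ± 0.48). Dtymk encodes thymidylate kinase, B3galnt2 a glycosyltransferase, and none of the 5 exceeded 30.7 CPM in any library. Among these 10 genes, some lost the call in fits that left out 1 of the 8 libraries. With the number of such fits and the highest FDR among them, they were Tc2n (8, FDR = 0.115 without Sham 3), Magix (7, FDR = 0.123 without Control-AMI 1), B3galnt2 (4, FDR = 0.0842 without Sham 4), Lfng (3, FDR = 0.101 without Sham 4) and Dtymk (5, FDR = 0.0898 without Sham 3). Hlx and Lfng were also called both with a term for the sample-sheet run and within run 2, while each of the others in this set lost the call in 1 or both of these fits. Of the 20 genes, 14 had a promoter in the RefSeq table used. In the 250 bases before the start, none of these promoters held a match to the letters searched for AP-1, the cyclic AMP response element, NF-kappaB, the hypoxia response element, STAT or the heat shock element, and 4 of 16 promoters of these genes held a metal response element, which 16.9% of all 32851 promoters do.

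Some transcription factors of the endothelial lineage fell. In a list of them 0 of 15 tested genes were higher and 5 lower, with a median log2 fold change of -0.39. Over all 10438 genes 4.09% were higher and 2.47% lower. Among the 1782 genes at less than 0.5 times in fibroblasts 1.96% were higher and 11.9% lower, with a median of -0.31. Whether this list, or the endothelial lists of the next paragraphs, fell beyond that was not tested. Klf2, kept in a list of its own family, is induced by laminar flow. Klf2 (ENSMUSG00000055148, chromosome 8, 73072726 to 73075502) had 1054, 1759.9, 1449.7 and 1887 CPM in Sham replicates 1 to 4 and 542, 349, 602 and 339.9 CPM in Control-AMI replicates 1 to 4, and every Control-AMI library lay below every Sham library (log2 fold change -1.75 ± 0.28 SE, FDR = 0.00223). Among 10 Kruppel-like factors, 2 were higher and 1 lower. Besides Klf2, Klf9 (0.78 ± 0.19) rose, and the fibroblast-enriched Klf15 is described below. Meox2, a homeobox factor of heart ECs that controls fatty acid uptake, had 78.5, 109, 137 and 77 CPM in Sham replicates 1 to 4 and 32.7, 33.9, 44.1 and 26.8 CPM in Control-AMI replicates 1 to 4, again without overlap (log2 fold change -1.55 ± 0.25 SE, FDR = 0.000895). Sox7 (-1.55 ± 0.36), Ets1 (-0.98 ± 0.20), Ets2 (-0.84 ± 0.19) and Fli1 (-0.79 ± 0.19) also fell. Foxo1 had 198 ± 18.9 CPM in Sham and 137 ± 27.9 CPM in Control-AMI (FDR = 0.0581), and Epas1 had 648 ± 105 CPM in Sham and 493 ± 103 CPM in Control-AMI (FDR = 0.203). Both had lower means in Control-AMI and did not pass the test.

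The endothelial markers gave 3 lower genes of 12, with a median log2 fold change of -0.53. Kdr, the main VEGF receptor, had 3757, 3568, 4506 and 4095 CPM in Sham replicates 1 to 4 and 1690.3, 1492, 2623 and 1723 CPM in Control-AMI replicates 1 to 4. The lowest Sham library exceeded the highest Control-AMI library (log2 fold change -1.08 ± 0.21 SE, FDR = 0.00413). Emcn (-0.56 ± 0.16) and Fabp4 (-0.73 ± 0.19) fell, and Pecam1, which encodes CD31, had 1879 ± 123 CPM in Sham and 1558 ± 597 CPM in Control-AMI (FDR = 0.468), while Cdh5, which encodes VE-cadherin, had 645 ± 73.7 CPM in Sham and 430.2 ± 115 CPM in Control-AMI (FDR = 0.0532). In the VEGF and angiopoietin list 1 of 16 tested genes was higher and 3 lower, with a median log2 fold change of -0.24. The co-receptors Nrp1 (-0.60 ± 0.16) and Nrp2 (-0.66 ± 0.20) fell with Kdr, and the 1 higher gene was the fibroblast-enriched ligand Pgf (1.38 ± 0.25). The ligands Vegfa (log2 fold change 0.49, FDR = 0.476) and Vegfb (0.16, FDR = 0.834) did not pass the test.

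Some genes of sprouting ECs fell. In a list of apelin and tip cell genes 1 of 11 tested genes was higher and 4 lower, with a median log2 fold change of -0.064. Pdgfb, the growth factor with which ECs recruit mural cells, had 366, 261, 416 and 259.6 CPM in Sham replicates 1 to 4 and 141, 155, 142 and 128 CPM in Control-AMI replicates 1 to 4, without overlap (log2 fold change -1.2 ± 0.18 SE, FDR = 0.000515). Cxcr4 (-1.81 ± 0.35) and Unc5b (-0.84 ± 0.19) and Aplnr were the others, and the higher gene was the fibroblast-enriched Adm. The ligand Apln had 28.3 ± 14.8 CPM in Sham and 12.8 ± 5.15 CPM in Control-AMI (FDR = 0.0982). In the Notch list 1 of 13 tested genes was higher and 3 lower, with a median log2 fold change of -0.19. The ligand Dll4 had 92.6, 58, 70.1 and 72.9 CPM in Sham replicates 1 to 4 and 18.1, 33.3, 36.8 and 19.3 CPM in Control-AMI replicates 1 to 4, with all Control-AMI libraries below Sham (log2 fold change -1.46 ± 0.24 SE, FDR = 0.00116). Its targets Hey1 (-1.16 ± 0.27) and Nrarp (-1.05 ± 0.32) fell, and the fibroblast-enriched Rbpj (0.66 ± 0.17), the transcription factor of the pathway, rose. In the list of TGF-beta and BMP signaling 1 of 21 tested genes was higher and 3 lower, with a median log2 fold change of 0.15. The BMP targets Id1 (log2 fold change -1.34 ± 0.20 SE, FDR = 0.000434) and Id3 (log2 fold change -0.95 ± 0.18 SE, FDR = 0.00277) and the inhibitor Smad7 (log2 fold change -0.72 ± 0.21 SE, FDR = 0.0402) fell, and the fibroblast-enriched ligand Bmp4 (1.31 ± 0.31) rose.

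Some genes of the cell border and of fatty acid uptake fell. Among junction genes 0 of 15 tested genes were higher and 4 lower, with a median log2 fold change of -0.42. They were Pcdh12 (-1.4 ± 0.27), Ctnnb1 (-0.61 ± 0.16), Jam2 (-0.77 ± 0.20) and Jam3 (-0.80 ± 0.24), of which Ctnnb1 encodes beta-catenin and the JAM genes junctional adhesion molecules. Among caveolae and fatty acid uptake genes 1 of 14 tested genes was higher and 5 lower, with a median log2 fold change of -0.53. Cav1 had 814 ± 231 CPM in Sham and 418 ± 85.3 CPM in Control-AMI (log2 fold change -0.96 ± 0.25 SE, FDR = 0.0317), although its groups overlapped, and Cav2 (-0.76 ± 0.16), Fabp5 (-0.80 ± 0.16) and Fabp4 fell with it. Cd36 had 1903 ± 154 CPM in Sham and 1306 ± 234 CPM in Control-AMI (FDR = 0.0874). In the other direction, Lpl, the lipase that frees fatty acids from lipoproteins, had 588, 971, 931 and 669.8 CPM in Sham replicates 1 to 4 and 1273, 1646, 1364 and 2019 CPM in Control-AMI replicates 1 to 4, without overlap (log2 fold change 1.00 ± 0.20 SE, FDR = 0.00413). Of the capillary list 1 of 10 genes was higher and 3 were lower, all among those just given. Of 9 arterial genes 1 was higher and 3 were lower, namely Fbln5 (1.01 ± 0.25), which is fibroblast-enriched, and Stmn2 (-0.99 ± 0.22) with Dll4 and Hey1. Selp was the 1 called gene of 9 venous genes. No endocardial gene of 7 was called by edgeR, where 1 had an unadjusted p below 0.05 and DESeq2 called 0.

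Of the called genes named among endothelial transcription factors, receptors, sprouting, Notch, BMP, junction and fatty acid genes, some lost the call in fits that left out 1 of the 8 libraries. With the number of such fits and the highest FDR among them, they were Klf9 (1, FDR = 0.0549 without Sham 3), Sox7 (2, FDR = 0.0579 without Sham 3), Fli1 (1, FDR = 0.0609 without Sham 3), Emcn (5, FDR = 0.124 without Control-AMI 1), Fabp4 (2, FDR = 0.0938 without Control-AMI 1), Nrp1 (4, FDR = 0.0905 without Sham 3), Nrp2 (7, FDR = 0.199 without Sham 3), Unc5b (1, FDR = 0.0572 without Sham 3), Hey1 (1, FDR = 0.063 without Sham 3), Nrarp (7, FDR = 0.164 without Sham 3), Rbpj (2, FDR = 0.076 without Control-AMI 1), Smad7 (6, FDR = 0.156 without Sham 3), Bmp4 (1, FDR = 0.0527 without Sham 3), Ctnnb1 (5, FDR = 0.0854 without Control-AMI 1), Jam2 (5, FDR = 0.103 without Control-AMI 1), Jam3 (6, FDR = 0.175 without Sham 3), Cav1 (5, FDR = 0.118 without Sham 3) and Fbln5 (2, FDR = 0.0968 without Control-AMI 1). Klf2, Meox2, Sox7, Pdgfb, Adm, Id1 and Fabp5 were also called both with a term for the sample-sheet run and within run 2, while each of the others in this set lost the call in 1 or both of these fits. For Kdr the FDR was 0.103 and 0.228.

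**Figure D4:**
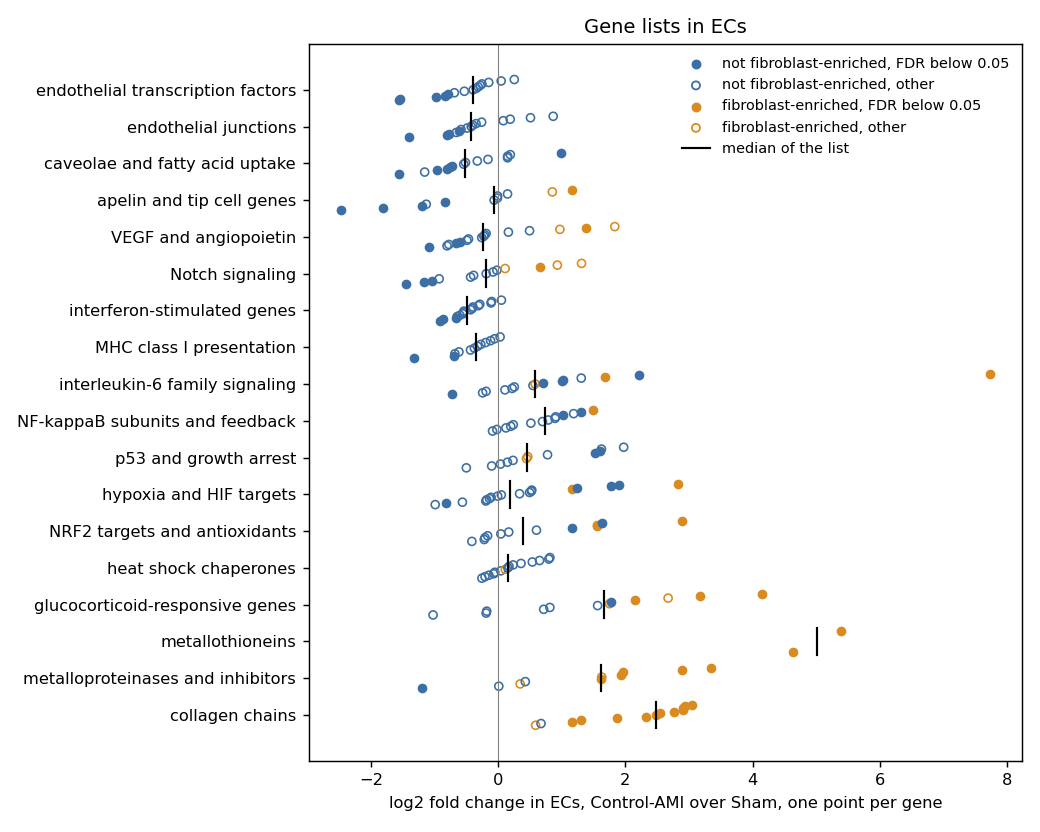
Log2 fold change of Control-AMI over Sham ECs (x axis) for the tested genes of 18 lists, 1 point per gene, filled where the gene was called and orange where it was fibroblast-enriched, with the list's median as a line. Lists of endothelial transcription factors, junctions and fatty acid uptake have medians between -0.53 and -0.39. The median of all 1782 genes at less than 0.5 times in fibroblasts was -0.31. The collagen chains and metallothioneins lie to the right at 2.48 and 5.01 with orange points.

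Inflammatory signaling moved in both directions. In the interleukin-6 family list 6 of 15 tested genes were higher, with a median log2 fold change of 0.58. Il6, the cytokine itself and fibroblast-enriched, had 0, 0, 0 and 0 CPM in Sham replicates 1 to 4 and 5.44, 25.7, 16 and 13.1 CPM in Control-AMI replicates 1 to 4. It was at 0 counts in every Sham library and above the floor in all Control-AMI libraries, at least 6.79-fold higher against 3 counts in the smallest Sham library (FDR = 0.000714). Stat3, the transcription factor of the pathway, had 323, 344, 353 and 356 CPM in Sham replicates 1 to 4 and 445, 744, 559 and 490 CPM in Control-AMI replicates 1 to 4, without overlap (log2 fold change 0.70 ± 0.17 SE, FDR = 0.0133). Osmr (1.01 ± 0.26) and Cish (1.0 ± 0.20), a receptor and a feedback inhibitor, and the fibroblast-enriched receptor Il6ra (1.68 ± 0.40) also rose, as did Socs3. In the interferon list 0 of 16 tested genes were higher and 3 lower, with a median log2 fold change of -0.49, the lower ones being the guanosine triphosphatases Gbp4 (-0.92 ± 0.17), Igtp (-0.86 ± 0.20) and Gbp2 (-0.66 ± 0.19). In the MHC class I list 0 of 12 tested genes were higher and 2 lower, with a median log2 fold change of -0.35, namely the immunoproteasome subunits Psmb9 (-1.33 ± 0.29) and Psmb8 (-0.69 ± 0.20).

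Among NF-kappaB subunits and feedback genes 3 of 14 tested genes were higher and 0 lower, with a median log2 fold change of 0.74. Nfkbia (ENSMUSG00000021025, chromosome 12, 55535332 to 55539432) encodes the inhibitor that NF-kappaB itself induces. It had 1429, 2037, 1077 and 1369 CPM in Sham replicates 1 to 4 and 2145, 3491, 3904 and 2432 CPM in Control-AMI replicates 1 to 4, and every Control-AMI library lay above every Sham library (log2 fold change 1.02 ± 0.20 SE, FDR = 0.00366). Birc3, an inhibitor of cell death induced by NF-kappaB, had 10.6, 17.1, 28.2 and 20.8 CPM in Sham replicates 1 to 4 and 26.3, 61.3, 61.5 and 41.7 CPM in Control-AMI replicates 1 to 4, with Control-AMI 1 among the Sham values (log2 fold change 1.29 ± 0.28 SE, FDR = 0.00646). The fibroblast-enriched Tnfaip2 (1.5 ± 0.24) rose too, and of the subunits Rela had 125 ± 11.5 CPM in Sham and 147 ± 34.5 CPM in Control-AMI (FDR = 0.477). Of 10 genes of interleukin-1 and TNF signaling 2 rose, the receptor Il1r1 (0.98 ± 0.18) and the kinase Ripk1 (0.64 ± 0.18). The cell death list held 2 higher genes of 13 and no lower one by edgeR, where 3 had an unadjusted p below 0.05 and DESeq2 called 2. They were Bcl2l1, which encodes the survival protein Bcl-xL (log2 fold change 0.97 ± 0.19 SE, FDR = 0.00346), and the inflammatory caspase Casp4 (log2 fold change 1.04 ± 0.30 SE, FDR = 0.0369).

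The promoters of Nfkbia and Casp4 are shown because each holds 1 match to the NF-kappaB letters searched (GGGACTTTC, GGGAATTTC and GGGATTTCC, either strand), which 0.801% of the 32851 promoters in the table hold. Of 24 genes named here that were called higher, were not fibroblast-enriched and had a promoter, these were the 2 with a match, and of 28 such lower genes none had one. Each line gives 250 bases before the RefSeq start, 5′ to 3′, with the match in capitals. The sequences are from RefSeq (GRCm38.p6) and were placed in GRCm39 by exact match. A match is a run of letters and was not tested as a binding site.
Nfkbia (chr12:55539433-55539682, minus strand): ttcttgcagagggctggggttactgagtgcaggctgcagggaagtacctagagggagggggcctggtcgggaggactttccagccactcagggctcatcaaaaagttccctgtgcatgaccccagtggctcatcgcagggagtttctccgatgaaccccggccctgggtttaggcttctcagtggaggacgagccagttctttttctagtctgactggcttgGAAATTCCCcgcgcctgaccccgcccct
Casp4 (chr9:5308599-5308848, plus strand): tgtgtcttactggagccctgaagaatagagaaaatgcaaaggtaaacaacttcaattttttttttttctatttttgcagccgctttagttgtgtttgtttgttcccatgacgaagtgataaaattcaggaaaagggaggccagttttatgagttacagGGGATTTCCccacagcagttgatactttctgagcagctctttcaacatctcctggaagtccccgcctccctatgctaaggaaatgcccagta

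Of adhesion genes 1 of 11 tested genes was higher and 3 lower, with a median log2 fold change of 0.08. Icam2, which resting ECs carry, fell (log2 fold change -0.79 ± 0.18 SE, FDR = 0.00835) beside Jam2 and Jam3, and Selp rose. Icam1 had 118 ± 33.8 CPM in Sham and 202 ± 70.6 CPM in Control-AMI (FDR = 0.129), and the E-selectin gene Sele had 4.07 ± 2.8 CPM in Sham and 19.9 ± 17.9 CPM in Control-AMI (FDR = 0.206). Neither passed the test. Of chemokines 1 of 8 tested genes was higher and 2 lower, with a median log2 fold change of 0.92. Cxcl12 (log2 fold change -0.79 ± 0.20 SE, FDR = 0.0207) and Cx3cl1 (log2 fold change -1.15 ± 0.30 SE, FDR = 0.0206), both made by resting ECs, fell. The fibroblast-enriched Cxcl10 had 1.18, 0.475, 1.46 and 0.694 CPM in Sham replicates 1 to 4 and 2.27, 12.8, 7.35 and 9.96 CPM in Control-AMI replicates 1 to 4, low throughout (log2 fold change 2.97 ± 0.71 SE, FDR = 0.0129). Cxcl2, which attracts neutrophils, had 11.2, 5.23, 4.87 and 2.78 CPM in Sham replicates 1 to 4 and 15, 79.4, 92.9 and 14.9 CPM in Control-AMI replicates 1 to 4, without overlap, but did not pass the test (FDR = 0.0543). No leukocyte marker of 5 tested was called by edgeR, where 4 had an unadjusted p below 0.05 and DESeq2 called 1. Of the called genes named among cytokine, NF-kappaB, interferon, adhesion and chemokine genes, some lost the call in fits that left out 1 of the 8 libraries. With the number of such fits and the highest FDR among them, they were Osmr (5, FDR = 0.0728 without Control-AMI 2), Il6ra (1, FDR = 0.0601 without Control-AMI 3), Gbp2 (6, FDR = 0.122 without Control-AMI 1), Psmb8 (7, FDR = 0.12 without Sham 2), Ripk1 (5, FDR = 0.132 without Sham 3), Casp4 (5, FDR = 0.1 without Sham 2), Cxcl12 (5, FDR = 0.0963 without Sham 3) and Cx3cl1 (5, FDR = 0.0713 without Control-AMI 4). Il6, Stat3, Osmr, Nfkbia, Birc3, Tnfaip2, Il1r1 and Cxcl10 were also called both with a term for the sample-sheet run and within run 2, while each of the others in this set lost the call in 1 or both of these fits.

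Stress genes of growth arrest and hypoxia rose in part. Cdkn1a, the cell cycle inhibitor p21, had 454, 790.1, 346 and 387 CPM in Sham replicates 1 to 4 and 1209.6, 1658, 1472 and 1642 CPM in Control-AMI replicates 1 to 4, without overlap (log2 fold change 1.6 ± 0.23 SE, FDR = 0.000535). Gadd45g (1.52 ± 0.35), of the same list of 12 genes, rose as well, and the list held no lower gene by edgeR, with 5 at an unadjusted p below 0.05. Of hypoxia and HIF targets 5 of 18 tested genes were higher and 1 lower, with a median log2 fold change of 0.19. Ddit4, an inhibitor of mTOR, rose (log2 fold change 1.77 ± 0.44 SE, FDR = 0.0356), as did Pfkfb3, a driver of glycolysis (log2 fold change 1.89 ± 0.48 SE, FDR = 0.0425), and Bnip3, a mitophagy receptor (log2 fold change 1.24 ± 0.31 SE, FDR = 0.0226). The fibroblast-enriched Hk2 (2.82 ± 0.53) and Adm (1.16 ± 0.26) completed the higher ones. Egln1, the oxygen sensor that marks HIF for decay, fell (log2 fold change -0.82 ± 0.18 SE, FDR = 0.00588).

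The Bnip3 promoter is shown because it holds 2 matches, overlapping on opposite strands, to the hypoxia response element letters searched (TACGTGC, with G or C also allowed as the first base, either strand). Of the 24 higher genes above, Bnip3 and Cish held one, of the 28 lower genes Egln1 did, and so did 4.10% of all promoters.
Bnip3 (chr7:138511236-138511485, minus strand): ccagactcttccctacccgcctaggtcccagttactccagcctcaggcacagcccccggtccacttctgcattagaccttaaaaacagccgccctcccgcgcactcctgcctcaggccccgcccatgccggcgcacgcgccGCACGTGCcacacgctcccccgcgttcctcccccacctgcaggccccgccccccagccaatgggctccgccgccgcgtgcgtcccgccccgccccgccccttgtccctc

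Of NRF2 targets and antioxidants 5 of 12 tested genes were higher and 0 lower, with a median log2 fold change of 0.38. Txnrd1 (thioredoxin reductase, log2 fold change 1.63 ± 0.34 SE, FDR = 0.0126) and Gclc (for glutathione synthesis, log2 fold change 1.16 ± 0.32 SE, FDR = 0.0405) were not fibroblast-enriched, and Sod3 (1.55 ± 0.35), Gpx3 (2.9 ± 0.64) and Srxn1 (1.56 ± 0.43) were. Among AP-1 and immediate early genes 3 of 18 were higher, namely Maff (1.11 ± 0.27), Fosl2 (1.5 ± 0.36) and the fibroblast-enriched Nr4a3 (1.74 ± 0.33), and none was lower by edgeR, while 6 had an unadjusted p below 0.05. None of 15 heat shock chaperones was called, where 3 had an unadjusted p below 0.05 and DESeq2 called 1. Hsp90aa1 had 1922, 2416, 1366 and 2739.6 CPM in Sham replicates 1 to 4 and 3067, 4392, 4949 and 2426 CPM in Control-AMI replicates 1 to 4, with 3 of the Control-AMI libraries above all Sham libraries and Control-AMI 4 among them (FDR = 0.38). Of 14 chaperones of the unfolded protein response 2 were higher, both fibroblast-enriched by a small margin. Hspa5, which encodes BiP, had 773, 719, 544 and 845 CPM in Sham replicates 1 to 4 and 1520.2, 1509, 1319 and 954 CPM in Control-AMI replicates 1 to 4, without overlap (log2 fold change 0.88 ± 0.18 SE, FDR = 0.00484), and Calr (0.56 ± 0.17) was the other. In the integrated stress response list 2 of 9 were higher, Cebpb (3.01 ± 0.58) and Nupr1 (2.28 ± 0.54), both fibroblast-enriched, while Atf4 had 404 ± 275 CPM in Sham and 630 ± 73.8 CPM in Control-AMI (FDR = 0.41). Of 12 MAP kinase feedback genes Dusp8 (-0.77 ± 0.23) was lower. Of the called genes named among stress genes, some lost the call in fits that left out 1 of the 8 libraries. With the number of such fits and the highest FDR among them, they were Gadd45g (3, FDR = 0.0654 without Sham 3), Ddit4 (7, FDR = 0.0963 without Sham 3), Pfkfb3 (7, FDR = 0.111 without Sham 3), Bnip3 (4, FDR = 0.0699 without Sham 4), Gclc (7, FDR = 0.102 without Control-AMI 4), Sod3 (1, FDR = 0.0589 without Control-AMI 1), Gpx3 (4, FDR = 0.0707 without Sham 4), Srxn1 (7, FDR = 0.123 without Sham 3), Maff (1, FDR = 0.0549 without Sham 3), Fosl2 (4, FDR = 0.0843 without Sham 3), Calr (5, FDR = 0.157 without Sham 3), Nupr1 (3, FDR = 0.0724 without Sham 3) and Dusp8 (6, FDR = 0.215 without Sham 4). Bnip3, Srxn1, Fosl2 and Hspa5 were also called both with a term for the sample-sheet run and within run 2, while each of the others in this set lost the call in 1 or both of these fits.

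Collagen genes and fibroblast markers rose. Of 13 fibroblast markers 11 were higher, and of 13 collagen chains 11, all of them fibroblast-enriched, with medians of 2.50 and 2.48. The lists share collagen genes, so these counts and medians are not independent. Col1a1, a chain of type I collagen, had 37.2, 62.3, 20 and 30.5 CPM in Sham replicates 1 to 4 and 549, 88.7, 158 and 337 CPM in Control-AMI replicates 1 to 4. Control-AMI 1 and 4, the libraries with the highest fibroblast marker sums, were also the highest here (log2 fold change 2.91 ± 0.61 SE, FDR = 0.0189). Mmp2, a gelatinase, had 20.6, 38.5, 10.2 and 13.9 CPM in Sham replicates 1 to 4 and 319, 48.4, 68.2 and 187 CPM in Control-AMI replicates 1 to 4, in the same order (log2 fold change 2.89 ± 0.63 SE, FDR = 0.0213). With the fibroblast marker level as a term, the log2 fold changes were -0.13 for Col1a1, which is itself one of the markers behind that level, and -0.29 for Mmp2, which is not. Of metalloproteinases and inhibitors 5 of 10 tested genes were higher and 1 lower, with a median log2 fold change of 1.62. Besides Mmp2, Mmp14 (1.61 ± 0.30), Mmp23 (1.93 ± 0.48), Mmp3 (1.96 ± 0.57) and Timp1 (3.35 ± 0.70) rose, and Mmp15, the 1 that fell, was not fibroblast-enriched (log2 fold change -1.2 ± 0.33 SE, FDR = 0.041). Timp1 had 2.36, 0.475, 0.487 and 0.694 CPM in Sham replicates 1 to 4 and 10.4, 15.8, 6.02 and 9.96 CPM in Control-AMI replicates 1 to 4, of which the Sham values were at most 4 counts.

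The 13 genes the study picked from these libraries for RT-PCR are not independent evidence of their direction. Of them 9 were higher and all 9 were fibroblast-enriched, namely Mmp2, Mmp14, Mmp23, Timp1, Sdc2 (2.2 ± 0.39), Egfr (4.27 ± 0.81), Igf1 (1.39 ± 0.39) and Rab7b (2.15 ± 0.54) and Sod3. The other 4, Vegfa, Vegfb, Icam1 and Timp2, did not pass the test. Timp2, which is fibroblast-enriched too, had 449.5, 608, 265 and 514 CPM in Sham replicates 1 to 4 and 2392, 863, 806 and 1611 CPM in Control-AMI replicates 1 to 4, without overlap (log2 fold change 1.63 ± 0.45 SE, FDR = 0.0602). Egfr, a growth factor receptor, had 4.72, 1.43, 0 and 0 CPM in Sham replicates 1 to 4 and 54.9, 14, 18.7 and 33.6 CPM in Control-AMI replicates 1 to 4. Its Control-AMI values were again highest in replicates 1 and 4. Galnt16, a fibroblast-enriched glycosyltransferase gene, had 0, 1.9, 0 and 0 CPM in Sham replicates 1 to 4 and 26.8, 6.42, 8.69 and 16.8 CPM in Control-AMI replicates 1 to 4 (log2 fold change 4.62 ± 0.88 SE, FDR = 0.003). In the list of glycocalyx genes 4 of 13 tested genes were higher and 1 lower, with a median log2 fold change of 0.039. The higher ones were Vcan (3.23 ± 0.43), Dcn (1.91 ± 0.44), Sdc4 (1.43 ± 0.37) and Sdc2. All 4 were fibroblast-enriched, and Dcn is also one of the fibroblast markers. The not enriched Podxl (-0.83 ± 0.20) was lower. Adamts4 (3.38 ± 0.58) and Adamts2 (2.63 ± 0.44) were the 2 higher of 9 ADAMTS proteases, Lama2 (2.73 ± 0.66), Lamc1 (1.49 ± 0.35) and Nid1 (0.97 ± 0.22) the 3 of 15 basement membrane genes, and Thbs1 (3.02 ± 0.44) and Serpine2 (1.79 ± 0.41) with the not enriched receptor Plaur (1.76 ± 0.43) the 3 of 11 clotting and fibrinolysis genes. No integrin subunit of 12 was called by edgeR, where 6 had an unadjusted p below 0.05 and DESeq2 called 1.

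The metallothioneins Mt1 and Mt2 and the glucocorticoid-responsive Fkbp5 were fibroblast-enriched too. Their log2 fold changes moved little in the fit with the fibroblast marker level, in which no gene was called. The part of that level in their rise was not tested, since the level and the group overlap. Mt1, a metallothionein that binds zinc, had 21.8, 40.9, 10.2 and 21.5 CPM in Sham replicates 1 to 4 and 394, 669, 751 and 550.3 CPM in Control-AMI replicates 1 to 4, without overlap and with the highest value in Control-AMI 3 (log2 fold change 4.63 ± 0.52 SE, FDR = 0.000824). Mt2 had 13, 25.2, 3.41 and 5.55 CPM in Sham replicates 1 to 4 and 282, 682, 722 and 366 CPM in Control-AMI replicates 1 to 4 (log2 fold change 5.4 ± 0.71 SE, FDR = 0.0021). With the fibroblast marker level as a term, the log2 fold changes were 4.55 and 5.63, at unadjusted p of 0.000348 and 0.000544. Of 12 glucocorticoid-responsive genes 4 were higher. Fkbp5, a chaperone partner of the glucocorticoid receptor, had 14.7, 30.9, 15.1 and 20.8 CPM in Sham replicates 1 to 4 and 124, 269, 166 and 179.9 CPM in Control-AMI replicates 1 to 4, without overlap (log2 fold change 3.17 ± 0.34 SE, FDR = 0.000275), and kept 3.16 with that term (unadjusted p = 0.000102). The transcription factor Zbtb16 had 29.5, 3.8, 10.2 and 7.63 CPM in Sham replicates 1 to 4 and 194, 320.4, 156 and 222 CPM in Control-AMI replicates 1 to 4 (log2 fold change 4.14 ± 0.65 SE, FDR = 0.00428), and Cebpd (2.15 ± 0.41) and Ddit4 were the others. Klf15, induced by glucocorticoids too, rose from low values (log2 fold change 2.13 ± 0.42 SE, FDR = 0.0036). Of acute phase genes 3 of 8 were higher, all fibroblast-enriched, namely C3 (3.19 ± 0.58), Ptx3 (2.81 ± 0.75) and Serpina3n (3.29 ± 0.81). The 1 enriched gene that fell was the transcriptional repressor Hic1 (-1.32 ± 0.34).

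The Mt1 promoter is shown with its 1 match to the metal response element letters searched (TGCACAC, with A or G as the fourth base and A, C or T as the sixth, either strand), found in 16.9% of all promoters and in 9 of 41 named fibroblast-enriched genes that rose.
Mt1 (chr8:94905467-94905716, plus strand): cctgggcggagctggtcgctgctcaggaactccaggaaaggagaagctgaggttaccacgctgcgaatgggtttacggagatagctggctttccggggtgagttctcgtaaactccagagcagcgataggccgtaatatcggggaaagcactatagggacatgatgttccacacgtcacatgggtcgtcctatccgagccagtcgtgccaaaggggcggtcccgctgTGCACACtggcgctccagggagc
Of the remaining lists, Ace (1.45 ± 0.30), Adm (1.16 ± 0.26) and Ptgis (1.51 ± 0.33) were the higher ones of 12 vasoactive genes, Igfbp4 (1.36 ± 0.32) and Igf1 (1.39 ± 0.39) and Egfr those of 12 genes of the IGF and EGF systems, Pdpn (1.76 ± 0.32) that of 7 lymphatic genes and Upk3b (1.7 ± 0.40) that of 2 mesothelial genes tested, all of them fibroblast-enriched and none lower. The eNOS gene Nos3 had 205 ± 30.1 CPM in Sham and 162 ± 47 CPM in Control-AMI (FDR = 0.304). Of 9 mural, 10 cardiomyocyte and 2 Schwann cell markers tested none was called by edgeR or DESeq2, and none had an unadjusted p below 0.05. Of the matrix, metallothionein, glucocorticoid and other genes named with the fibroblast-enriched class, some lost the call in fits that left out 1 of the 8 libraries. With the number of such fits and the highest FDR among them, they were Col1a1 (2, FDR = 0.0633 without Sham 3), Mmp2 (3, FDR = 0.0701 without Sham 3), Mmp23 (2, FDR = 0.0842 without Control-AMI 1), Mmp3 (5, FDR = 0.14 without Control-AMI 1), Mmp15 (6, FDR = 0.123 without Sham 3), Igf1 (6, FDR = 0.133 without Sham 3), Rab7b (3, FDR = 0.0654 without Sham 3), Dcn (4, FDR = 0.0739 without Sham 3), Sdc4 (5, FDR = 0.0918 without Sham 3), Podxl (2, FDR = 0.0542 without Sham 3), Lama2 (5, FDR = 0.0911 without Sham 4), Lamc1 (4, FDR = 0.0838 without Sham 3), Serpine2 (3, FDR = 0.0569 without Control-AMI 4), Plaur (2, FDR = 0.0633 without Sham 3), Ptx3 (5, FDR = 0.0979 without Sham 3), Serpina3n (4, FDR = 0.0979 without Sham 3), Hic1 (2, FDR = 0.165 without Sham 3) and Igfbp4 (3, FDR = 0.0554 without Sham 1). Vcan, Sdc4, Plaur, Mt1, Mt2, Fkbp5, Klf15 and Ptx3 were also called both with a term for the sample-sheet run and within run 2, while each of the others in this set lost the call in 1 or both of these fits.

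Fibroblasts of the same design (4 Sham and 4 Control-AMI libraries) allowed a test of whether the change differed between the populations. Fibroblast Sham 2 to 4 and Control-AMI 4 were in sample-sheet run 1, and Sham 1 and Control-AMI 1 to 3 in run 4. Run and group largely coincide there. In one fit of both populations, 379 of 11615 genes (3.26%) differed in effect, 278 (2.39%) with the larger value in ECs and 101 (0.87%) with the smaller. With a term for the run 327 genes differed, of which 229 were among these 379. In fibroblasts 4.3% of the genes were higher and 1.55% lower in Control-AMI. Of the 280 fibroblast-enriched genes higher in ECs, 40 were also higher in Control-AMI fibroblasts and 3 lower, against 57 and 32 of all 1173 enriched genes. The class was drawn from the Sham libraries that stand in both contrasts. The genes were also picked by their call in ECs, which favors a larger change there. These counts and those that follow are given as a description. The 280 genes had a median log2 fold change of 0.18 in fibroblasts. By the test 155 of them had the larger value in ECs, against 189 of all 1173. Of the 147 others higher in ECs, 68 were also higher in fibroblasts, where 429 of 9265 were, with a median of 0.79. By the test 6 of them rose more in ECs and 3 less. Of all 9265, 11 had the larger value in ECs and 99 the smaller. Of the 257 lower in ECs and not enriched, 12 were also lower and 4 higher in fibroblasts, against 134 and 429 of all 9265. Their median in fibroblasts was -0.034, and 29 of them fell more in ECs, beside the 99 of 9265 with the smaller value in ECs.

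Among named genes, Prdm1 had a log2 fold change in this fit of -2.14 in ECs and 1.91 in fibroblasts (difference -4.05 ± 0.75 SE, FDR = 0.00285). Hlx had log2 fold changes of -2.27 and 0.092 (difference FDR = 0.00595), Id1 of -1.34 and 0.29 (FDR = 0.0374), and Fabp5 of -0.80 and 0.51 (FDR = 0.00607). Lpl had log2 fold changes of 1.00 in ECs against 0.0048 in fibroblasts (FDR = 0.034), and Fkbp5 of 3.17 against 1.21 (FDR = 0.011). Col1a1 had log2 fold changes of 2.92 in ECs and 0.27 in fibroblasts (FDR = 0.012), and Mmp2 of 2.9 and 0.22 (FDR = 0.0129). The metallothioneins rose in both, Mt1 by 4.64 and 4.35 and Mt2 by 5.41 and 5.13, with no difference that passed (differences of 0.29 ± 0.60 and 0.28 ± 0.77 SE). Map3k6 (2.33 and 2.32), Socs3 (2.23 and 2.8) and Klf2 (-1.75 and -1.49) moved one way in both populations, each called in fibroblasts.

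**Figure D5:**
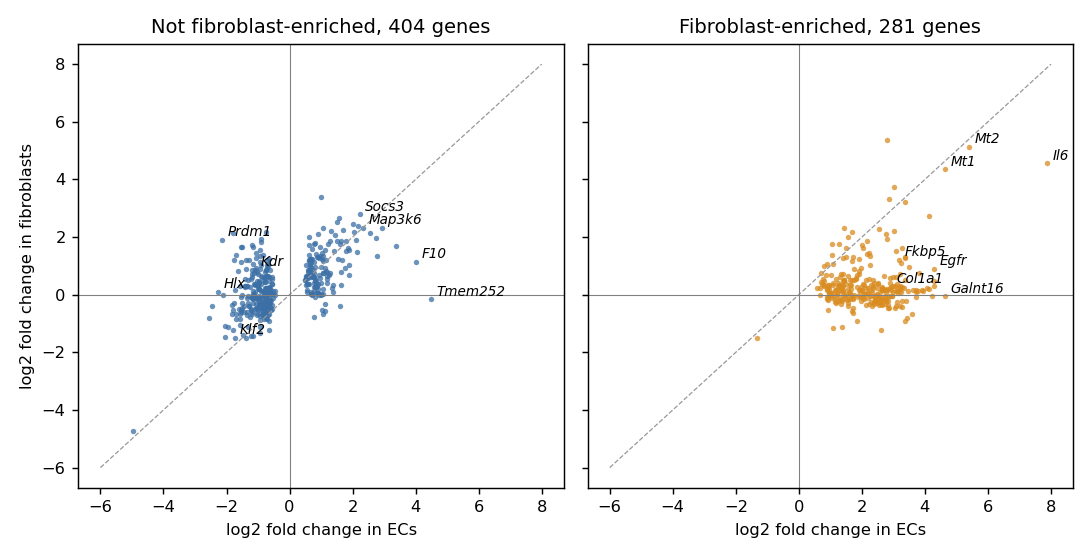
Log2 fold change of Control-AMI over Sham in ECs (x axis) and in fibroblasts (y axis), from one fit of both populations, for the genes called in ECs, with equal change on the dashed line. On the left, 404 genes that were not fibroblast-enriched, of which those higher in ECs had a median of 0.79 in fibroblasts, and on the right 281 enriched genes, most of which lie near 0 in fibroblasts while Mt1 and Mt2 lie close to the line.

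The calls rested on few libraries to different degrees. Leaving out each Sham or Control-AMI library in turn, 143 of the 404 called genes that were not fibroblast-enriched (56 higher and 87 lower) and 139 of the 281 enriched ones were called in all 8 fits. Sham 3 mattered most, since without it 341 genes were called in all, against 685, and 176 of those that were not fibroblast-enriched, against 404. That count was 235 without Sham 4, 265 without Control-AMI 1 (133 higher and 132 lower) and 232 without Control-AMI 4. With a term for the sample-sheet run 234 genes were called, and within run 2 (3 Sham and 2 Control-AMI libraries) 180. Control-AMI 1 and 4 add nothing to the contrast in either of these fits. In run 2, 128 genes that were not fibroblast-enriched were called, 89 higher and 39 lower, so that lower calls were no longer the majority. In all 8 fits and both run fits, 37 higher and 22 lower genes that were not enriched were called, and 38 enriched ones. The higher ones included Tmem252, F10, Eid3, Il4ra (1.8 ± 0.35), Csrnp1 (1.68 ± 0.23), Slc39a14 (1.41 ± 0.27), Sik1 (1.05 ± 0.24), Glul (0.89 ± 0.19), Socs2 (0.84 ± 0.17) and Noct (0.75 ± 0.18), Il1r1, Nfkbia, Birc3 and Stat3, all named here after their values were seen or by the rule for named genes. Il4ra is a receptor of interleukin-4, Slc39a14 a zinc and iron importer, Sik1 a salt-inducible kinase and Glul glutamine synthetase. The lower ones included Hlx, Klf2, Meox2, Pdgfb, Id1, Fabp5, Bcl6b (-1.76 ± 0.23), Tgtp2 (-1.77 ± 0.25), Arhgef15 (-1.2 ± 0.17), Gimap4 (-1.32 ± 0.20), Epha4 (-1.21 ± 0.24) and Trib2 (-0.79 ± 0.16), of which Epha4 is an ephrin receptor and Bcl6b a transcriptional repressor.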

How the data were processed

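The measured values were RNA sequencing counts of ECs sorted from Sham (4 libraries) and Control-AMI (4 libraries) mouse hearts, with 4 and 4 fibroblast libraries for comparison. Reads of 3′ libraries were trimmed by the authors with cutadapt 2.8, per the labels, and assigned with Salmon to GRCm39. The authors deposited estimated counts per gene in a table of 35682 genes, without normalization, and these were rounded to whole numbers here. Symbols and positions came from another GRCm39 annotation, in which 35407 genes had a symbol. An estimated count depends on how reads shared by similar genes were split. No values of the authors' own comparisons were used.

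The 13 EC libraries were fitted with edgeR 4.0.16 in R 4.3.3 (filterByExpr with a minimum count of 10, TMM factors, quasi-likelihood test with robust estimation). They included 5 EMPA–Pre-AMI libraries, which entered the gene filter, the TMM factors, the spread and any added term, but not the contrast. With the 2 groups alone, 9971 genes were tested and 513 called. FDR is the Benjamini-Hochberg adjusted p over all 10438 genes, with a threshold of 0.05. Differences between ECs and fibroblasts were tested as an interaction in one fit of 25 libraries. Both populations were sorted from the same cell suspensions, so EC and fibroblast libraries can share hearts. The labels do not tie them, and the fit took them as independent. The authors' methods name the same test, fitted per cell population, and its covariates are not given in the sources used here. Library totals were 1352514 to 2195308. Whether reads carried molecular identifiers is not given in the sources used here. Libraries were pools of 2 hearts, so p-values measure the spread between pools. No pair of libraries in a group agreed within counting error. Replicate numbers did not pair the samples, since correlations of the deviations of same-numbered libraries were -0.01, -0.01, 0.14 and -0.06.

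The genes, lists and tests were chosen with earlier results of these data known. Named were the 10 genes that rose and the 10 that fell most (5 of each among fibroblast-enriched genes) that were called and did not overlap, up to 4 genes of lowest FDR in each of 42 lists, 12 of the 13 genes the study picked for RT-PCR and endothelial markers. Timp2, the other RT-PCR gene, was added after its values were seen. Genes at or near a list's head that did not pass, and those said to be named after their values were seen, were added. The STAT motif (TTCCNGGAA) was also added later. A gene that the rule names is not reported here. RefSeq promoters of 93 of 128 named called genes were searched over 250 bases. Alternatives were DESeq2 1.42.0, RLE factors, no robust estimation, no filter or a stricter one, the 2 groups alone, a replicate block, terms for the sample-sheet run and the fibroblast marker level, run 2 alone, each library left out and other definitions of the fibroblast-enriched class. On simulated data of 10438 genes, 49% of genes changed 2-fold and 89% of those changed 4-fold were called.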

Additional observations from a re-analysis of the deposited data

Results flagged for a closer look

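Among the 4 libraries of a group, a library was marked where its gap to the nearest other took nearly all of the group's range (Dixon's test), which chance does for about 1 in 20 groups of values. Of 69 sets of values tested, 5 had such a library. Control-AMI 3 had 14.6% of counts from mitochondrial genes, where the next library had 5.67%, and 666 summed CPM of leukocyte markers, where the next had 61. Control-AMI 1 had 2195308 counts in all, against 1682035 in the next library. Galnt16 was at 1.9 CPM in Sham 2 and at 0 in the other Sham libraries, and Eid3 was at 14.5 CPM in Control-AMI 1 and at 21.8 CPM or more in the other Control-AMI libraries.

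Of the 25 genes with the largest changes, 4 differed between ECs and fibroblasts in the response to AMI, by the interaction test of edgeR adjusted over all genes. Over all 11615 genes 379 (3.26%) differed. The 25 genes were picked by their change in ECs, which is part of that test and favors a difference, so the count is a description. Prdm1 differed by -4.05 on the log2 scale (FDR = 0.00285, -2.14 in ECs and 1.91 in fibroblasts) and Hlx by -2.36 (FDR = 0.00595, -2.27 and 0.09). Galnt16 differed by 4.69 (FDR = 0.00136, 4.64 in ECs and -0.05 in fibroblasts) and Egfr by 3.40 (FDR = 0.00809, 4.29 and 0.89). Galnt16 and Egfr are fibroblast-enriched, and the part of the higher fibroblast marker level of the Control-AMI EC libraries in these differences was not tested.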

How the results depend on the processing

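Of 685 genes called in all, 404 that were not fibroblast-enriched, 281 that were and 379 that differed between ECs and fibroblasts, some settings moved a count by more than 1.5 times. With a term for the fibroblast marker level the first 3 were 0. With a term for the sample-sheet run they were 234, 147 and 87, and within run 2 180, 128 and 52. Fewer libraries entered the fit of run 2, and the part of their number in the lower counts was not tested. With at least 10 counts in every library, 154 enriched genes and 145 differences were called. Leaving out 1 library at a time gave 341 to 770, 176 to 508, 165 to 346 and 214 to 477. Less than 1.5 times away were DESeq2, with 889, 531, 358 and 551, and no filter, with 876, 477, 399 and 322. The replicate block also stayed within 1.5 times and gave 665, 402, 263 and 388, and 143 of 148 called genes named in the text were called with it. Of these 148 genes, DESeq2 called all, the run term 67, run 2 alone 48 and the fit with the fibroblast marker level none.

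Under the fibroblast marker level the sign turned for Cask (-0.21), Col1a1 (-0.13), Dcn (-0.32), Fbln5 (-0.036), Igf1 (-0.57), Igfbp4 (-0.052), Lama2 (-0.39), Mmp2 (-0.29), Nid1 (-0.16), Serpine2 (-0.19), Sod3 (-0.18), Timp2 (-0.40), Vegfb (-0.11), Cdh5 (0.16), Fkbp2 (0.22) and Pecam1 (0.043), on the log2 scale. Col1a1 and Dcn are among the markers behind that level. Vegfb was also at -0.21 with the run term and -0.26 in run 2, Pecam1 at 0.041 in run 2 and Fkbp2 at 0.048 with the run term. Leaving out 1 library at a time gave -0.072 to 0.077 for Fkbp2 and -0.23 to 0.084 for S100a11. The causes were not tested. The sample-sheet run and the group cannot be told apart for Control-AMI 1 and 4, the only EC libraries in run 4. Sham 1 shared run 3 with EMPA–Pre-AMI 4 and 5 alone among the EC libraries. Depth limits genes below about 2 CPM.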
